A study of Mus musculus with 8 samples.

Results

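The miR-200 family was measured in mouse liver during carbon tetrachloride (CCl4) injury through its 5 assays, miR-200b, miR-200a, miR-429, miR-200c and miR-141, which were taken by name from the 381 assays listed for each card. All 5 had a determined signal in untreated and injured liver, and 4 could be tested. Against untreated liver, none of the 4 passed the test at 1, 4 or 8 weeks, where 32.5%, 30.1% and 3.01% of all tested assays did. Between 1 and 4 weeks of CCl4, miR-429 and miR-200a fell, by 2.17 and 1.05 on the log2 scale, in a comparison that called 47.0% of all tested assays, so that 2 of 4 members is near the background. The call of miR-429 was lost in 2 of 13 other ways of processing, and the call of miR-200a in 9 of them. Without replicate 2 of the 4-week cards, the differences of miR-429 and miR-200a were -1.13 and -0.64. miR-200b, which lies in the same gene cluster as miR-429 and miR-200a, was the least variable of the 4 tested members except when the cards were scaled to endogenous control RNAs.

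Total RNA came from whole livers of female C57B6 mice (spelled as in the labels) that were 4 weeks old when treatment began. The treated mice received CCl4, a hepatotoxin used to model liver fibrosis, in corn oil by intraperitoneal injection, biweekly in the words of the labels, for 1, 4 or 8 weeks, and the control mice are labelled as untreated, with no mention of a corn oil injection. The labels give the dose as 1 mg/kg and the methods as 1 ml/kg, and the methods give 2 injections a week. Each of the 4 groups held 2 cards, and nothing in the labels says that the 2 came from separate mice, so the p-values measure the spread between cards, which may be technical. The design text gives other numbers of mice, 4, 3 and 2 for 1, 4 and 8 weeks, and how these map to the 2 cards of each group is not given in the sources used here. Since all treated mice started at the same age, time on CCl4 and age at collection cannot be told apart.

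Each card was a TaqMan Array Rodent MicroRNA A Card, a plate of wells that each quantify 1 small RNA by PCR. The deposited value is the threshold cycle (Ct), and a Ct lower by 1 stands for about 1 doubling of the template. A Ct was determined for 193 to 235 assays per card, and the 149 assays whose Ct was under 35 on all cards had a mean Ct that ranged from 27.5 to 29.8. Levels below are log2 values centred on this mean (the mean Ct of the card minus the Ct of the assay), so that a higher value is a higher level relative to the other small RNAs of the card. Replicate 2 at 4 weeks had both the fewest determined assays, 193, and the highest mean Ct, 29.8. The liver markers miR-122 and miR-192 were determined on all 8 cards, with mean Ct values of 22.8 and 22.6.

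The miR-200 family is known for keeping cells epithelial. Its members bind messenger RNAs of ZEB1 and ZEB2, transcription factors that repress E-cadherin, and ZEB1 and ZEB2 in turn repress the miR-200 genes, so that the 2 sides form a switch between epithelial and mesenchymal states. In liver the family is known mainly from the bile duct epithelium, while hepatocytes, which make up most of the tissue, carry less of it. In whole liver RNA, fewer cells of a type and less RNA per cell cannot be told apart.

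The family is made from 2 clusters and reads its targets with 2 seeds, which differ by 1 base, and the mature sequences are shown because miR-200a and miR-429, the 2 members called between 1 and 4 weeks, have different seeds. The sequences and positions are those of RefSeq on GRCm38.p6, where all 5 miRNAs lie on the minus strand and all 5 members were matched by name. The assay names carry no arm, and the 3p strands are printed because the unstarred names are used for them; the probe sequences were not used here. Each sequence runs 5′ to 3′ and the capitals mark the seed, bases 2 to 8.
miR-200b: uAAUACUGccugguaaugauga
miR-200a: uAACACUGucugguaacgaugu
miR-429: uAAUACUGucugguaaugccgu
miR-200c: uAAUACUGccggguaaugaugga
miR-141: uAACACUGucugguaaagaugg

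miR-200b (chr4:156055685-156055706), miR-200a (chr4:156054911-156054932) and miR-429 (chr4:156053916-156053937) come from hairpins that lie within 1846 bases of chromosome 4. miR-200c (chr6:124718324-124718346) and miR-141 (chr6:124717917-124717938) come from hairpins within 477 bases of chromosome 6. The seed AAUACUG is shared by miR-200b, miR-429 and miR-200c, and the seed AACACUG by miR-200a and miR-141. Seed and cluster therefore cross, since each cluster holds a member of either seed. Counted from base 1 at the 5′ end over the first 22 bases, miR-200b and miR-200c differ at 2 positions (U11G and A22G, the base of miR-200b first), and miR-200a and miR-141 also at 2 (C17A and U22G, the base of miR-200a first). Members of the chromosome 4 cluster differ from each other at 4 positions. miR-200b and miR-200a differ by U4C in the seed and by C9U, U17C and A22U outside it.

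In raw Ct, miR-200b was the earliest of the members, with a mean of 27.8 over the 8 cards, followed by miR-429 at 28.8, miR-200a at 28.9, miR-200c at 29.6 and miR-141 at 33.3 over the 7 cards on which it was determined. Ct values of different assays also depend on the efficiency of each assay, so this order is a description of signal and not of molecule number. The late Ct of miR-141 places it near the limit of Ct 35 used for testing.

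**Figure D1:**
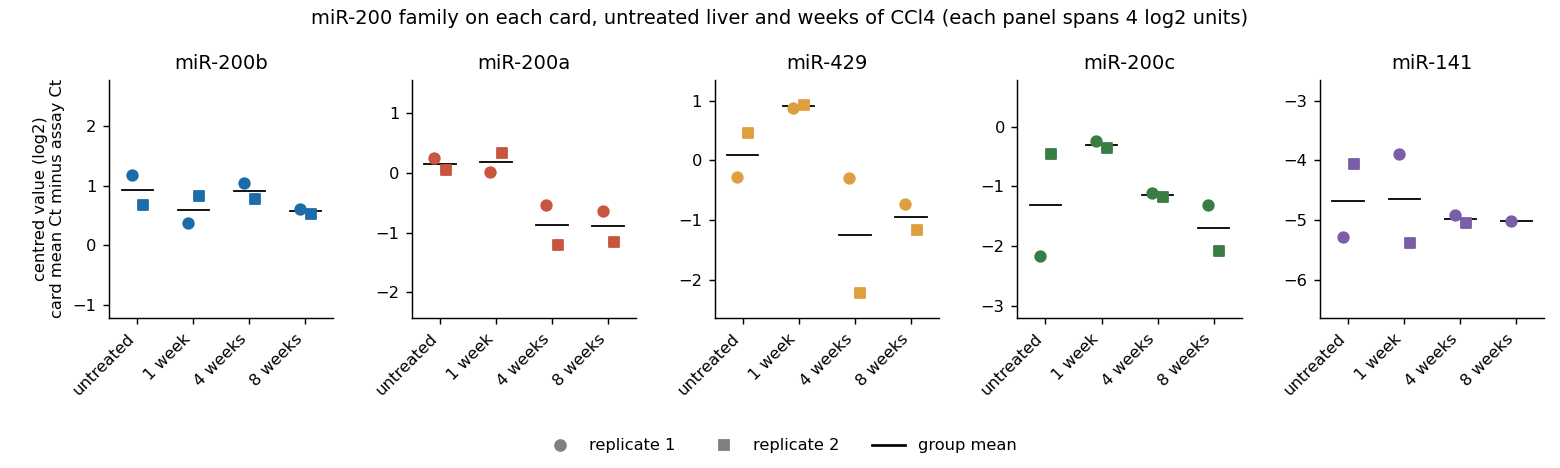
Centred log2 level of each member (y axis; card mean Ct over the shared assays minus the Ct of the assay) by group (x axis: untreated, then CCl4 for 1, 4 and 8 weeks); points are cards and lines are the means of 2 cards (1 card for miR-141 at 8 weeks). miR-200b stays between 0.38 and 1.19 on all cards, while miR-429 ranges from -2.23 to 0.94.

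miR-200b, the first hairpin of the chromosome 4 cluster, had Ct values of 27.16 and 27.32 in untreated liver, 28.39 and 27.77 on the 1-week cards, 27.21 and 29.00 on the 4-week cards, and 26.87 and 28.35 on the 8-week cards. Its centred levels were 1.19 and 0.67 in untreated liver, 0.38 and 0.83 on the 1-week cards, 1.04 and 0.77 on the 4-week cards, and 0.61 and 0.53 on the 8-week cards. The 1-week and 4-week cards overlapped the untreated cards, and the 8-week cards lay below them. The SD of the level over the 8 cards was 0.27, against a median of 0.72 over all 166 tested assays, and against 0.61 for miR-200a, 1.08 for miR-429 and 0.74 for miR-200c. The SD of miR-200b depended on the scaling, with 0.45 for the card mean (median of all tested assays 0.78), 0.44 for the geometric mean (0.77), 0.56 for the card median (0.83), 0.25 for quantile normalization (0.68) and 0.75 for no normalization (1.01). With the endogenous control RNAs it was 0.56 (0.82), and miR-200a was the less variable at 0.42.

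miR-200a, the second hairpin, had Ct values of 28.09 and 27.95 in untreated liver, 28.75 and 28.26 on the 1-week cards, 28.79 and 30.98 on the 4-week cards, and 28.12 and 30.03 on the 8-week cards. Its centred levels were 0.26 and 0.042 in untreated liver, 0.015 and 0.34 on the 1-week cards, -0.54 and -1.21 on the 4-week cards, and -0.64 and -1.15 on the 8-week cards. Thus all 4 cards from 4 and 8 weeks lay below all 4 cards from untreated liver and 1 week, as they did for 18 of the 166 tested assays (10.8%), miR-429 among them. This split of the cards is not among the 6 comparisons tested, so it is a description only. As linear values relative to the untreated mean, the level was 0.506 ± 0.163 (SD, n = 2) at 4 weeks and 0.493 ± 0.123 (SD, n = 2) at 8 weeks.

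miR-429, the third hairpin, had Ct values of 28.62 and 27.53 in untreated liver, 27.88 and 27.66 on the 1-week cards, 28.54 and 32 (to the hundredth) on the 4-week cards, and 28.22 and 30.05 on the 8-week cards. Its centred levels were -0.27 and 0.46 in untreated liver, 0.89 and 0.94 on the 1-week cards, -0.29 and -2.23 on the 4-week cards, and -0.74 and -1.17 on the 8-week cards. The 1-week cards were the highest and close to each other, whereas the 4-week cards differed from each other by more than any other pair of this assay. Replicate 1 at 4 weeks lay just below the lower untreated card, and replicate 2 was the lowest of all.

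miR-200c, of the chromosome 6 cluster, had centred levels of -2.17 and -0.46 in untreated liver, -0.24 and -0.36 on the 1-week cards, -1.12 and -1.18 on the 4-week cards, and -1.32 and -2.08 on the 8-week cards. The spread between the untreated cards exceeded every change of the group means, and both the 4-week and the 8-week cards lay within the untreated range. miR-141, its cluster partner, had Ct values of 33.64 and 32.06 in untreated liver, 32.67 and 33.99 at 1 week, and 33.18 and 34.82 at 4 weeks. At 8 weeks it was determined at 32.51 on replicate 1 and was not determined on replicate 2. Its centred levels were -5.29 and -4.07, then -3.90 and -5.39, then -4.93 and -5.05, and -5.03 on the single 8-week card, so that the groups overlapped. miR-141 was not tested because 1 value was missing.

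The first question is whether the family differed between untreated and CCl4-treated liver at each time. With limma across the 166 tested assays, 0 of the 4 tested members passed an adjusted p of 0.05 at 1 week, where 32.5% of all tested assays did. At 4 weeks the count was 0 of 4 against 30.1% of all assays, and at 8 weeks it was 0 of 4 against 3.01%. At an unadjusted p under 0.05, miR-200a was the 1 member that passed limma's test at 4 weeks and again at 8 weeks, and no member did at 1 week. Of the 166 tested assays, 73 were below this unadjusted threshold at 1 week, again 73 at 4 weeks and 40 at 8 weeks (24.1%), so that 1 of 4 members is near or below the background. With 2 cards per group the intervals are wide, and a p above the threshold does not show that the levels were alike.

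At 1 week, no member had both of its cards below both untreated cards. The log2 difference of miR-429 from untreated liver was 0.82 (95% interval -0.59 to 2.23, adjusted p = 0.309), and both 1-week cards lay above both untreated cards. The difference of miR-200c was 1.01 (-0.27 to 2.30, adjusted p = 0.194), also with both cards above. With 1 card left out, the value of miR-429 ran from 0.38 to 1.17, its ends being without untreated replicate 1 and without untreated replicate 2. The value of miR-200c also rests on the untreated cards: it was 0.090 without untreated replicate 1 and 1.85 without untreated replicate 2 (adjusted p = 0.0296). For miR-200a the difference was 0.027 (-0.79 to 0.84), a value whose sign turned under 5 of the other scalings. The difference of miR-200b was -0.33 (-1.07 to 0.41, adjusted p = 0.421), and quantile normalization turned it to 0.013. Of all tested assays, 36.1% lay above the untreated cards without overlap and 40.4% below, so that 2 of 4 members above is near the background.

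At 4 weeks, miR-200a differed from untreated liver by -1.02 (95% interval -1.84 to -0.20, adjusted p = 0.0649) and miR-429 by -1.35 (-2.76 to 0.062, adjusted p = 0.129). Both assays had both cards below both untreated cards, as had 34.3% of all tested assays. The miR-429 value rests largely on replicate 2 of the 4-week cards, since it was -0.38 without that card and -2.32 without replicate 1 (adjusted p = 0.0163). With 1 card left out, the difference of miR-200a ran from -1.35 to -0.69. Its limma adjusted p was 0.0465 when only assays with a mean Ct below 32 were tested. Under the other ways of processing it went up to 0.509, and the difference was as small as -0.38. The differences of miR-200b, -0.020 (-0.76 to 0.72), and of miR-200c, 0.17 (-1.11 to 1.45), were small against their intervals, and both turned sign under other scalings.

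At 8 weeks, the difference of miR-200a was -1.04 (95% interval -1.86 to -0.23, adjusted p = 0.141) and that of miR-429 was -1.05 (-2.46 to 0.36, adjusted p = 0.275). miR-200b differed by -0.36 (-1.10 to 0.38) and miR-200c by -0.38 (-1.67 to 0.90), and centring on the endogenous control RNAs turned both, to 0.10 and 0.078. The value of miR-200c was also 0.46 without untreated replicate 2, 0.0023 without the 8-week replicate 2 and -1.27 without untreated replicate 1. Both 8-week cards lay below both untreated cards for miR-200a, miR-429 and miR-200b, as they did for 32.5% of all tested assays. For miR-141 the single determined 8-week card was 0.345 below the untreated mean on the log2 scale.

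**Figure D2:**
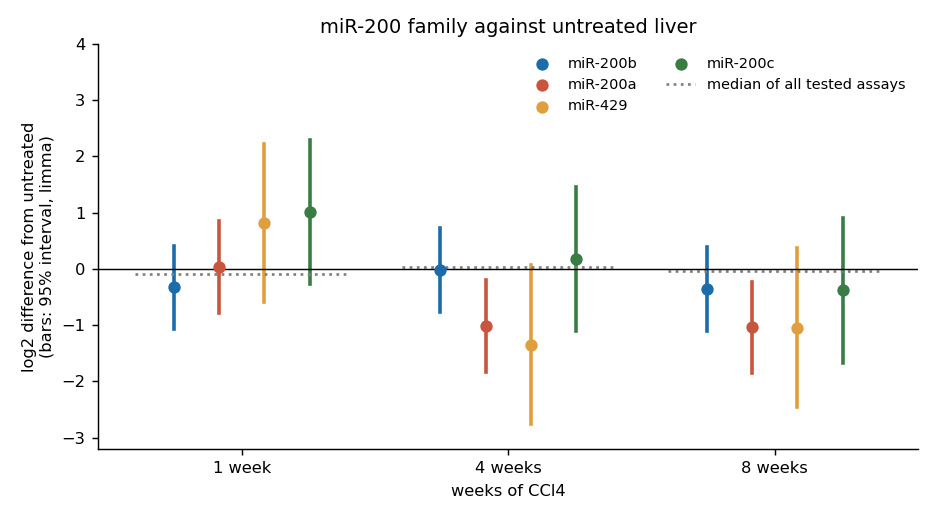
Log2 difference from untreated liver (y axis) for the 4 tested members after 1, 4 and 8 weeks of CCl4 (x axis), with 95% intervals from limma. The intervals of miR-200a at 4 and 8 weeks lie below 0, from -1.84 to -0.20 and from -1.86 to -0.23, and the other 10 include 0.

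The second question is how the family differed between times on CCl4. From 1 to 4 weeks, miR-429 fell by 2.17 on the log2 scale (95% interval -3.58 to -0.76, limma adjusted p = 0.0242) and miR-200a fell by 1.05 (-1.86 to -0.23, adjusted p = 0.0417). These 2 of 4 tested members were called where 47.0% of all tested assays were, so that the share is near the background. For miR-429, miR-200a and miR-200c both 4-week cards lay below both 1-week cards, as they did for 38.0% of all tested assays. The differences of miR-200c, -0.84 (adjusted p = 0.229), and of miR-200b, 0.31 (adjusted p = 0.446), did not pass, and both turned sign under other scalings. With the endogenous control RNAs, miR-200b differed by 1.19 and passed (limma adjusted p = 0.0444). Of the 13 other ways of processing, 9 lost the call of miR-200a, with values from -1.38 to -0.17, and 2 lost that of miR-429, with values of -1.29 and -2.17. Leaving out 1 card ended the call of miR-200a for 6 of the 8 cards and that of miR-429 for 3, and without the 4-week replicate 2 the differences were -0.64 and -1.13.

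From 1 to 8 weeks, miR-429 differed by -1.86 (adjusted p = 0.0561), miR-200c by -1.39 (adjusted p = 0.100), miR-200a by -1.07 (adjusted p = 0.0562) and miR-200b by -0.030 (adjusted p = 0.934). None of the 4 was called by limma, against 24.1% of all tested assays, and at an unadjusted p under 0.05 there were 3, all but miR-200b, against 42.2% of all tested assays. With 1 card left out, the difference ran from -2.08 to -1.64 for miR-429 and from -1.33 to -0.81 for miR-200a. That of miR-200c ran from -1.78 to -1.01. The untreated and 4-week cards enter this comparison only through the centring, the set of tested assays and the shared estimate of the spread. The 3 members other than miR-200b had both 8-week cards below both 1-week cards, as 36.1% of all tested assays had. From 4 to 8 weeks no member was called, against 1.20% of all tested assays, and none had an unadjusted p under 0.05, against 16.3% of all tested assays. For miR-200c and miR-200b both 8-week cards lay below both 4-week cards, as they did for 20.5% of all tested assays, while the cards of miR-429 and miR-200a overlapped. The differences were 0.30 for miR-429, -0.023 for miR-200a, -0.55 for miR-200c and -0.34 for miR-200b, and each turned sign under another scaling or, for miR-429, to -0.67 without the 4-week replicate 2. These comparisons share their cards with those against untreated liver and are not independent of them.

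Values set against each other on the same card are not moved by a scaling that shifts all assays of a card by the same amount, as all scalings used here do except quantile normalization. The Ct of miR-200a exceeded that of miR-200b by 0.93 and 0.63 cycles in untreated liver and by 0.36 and 0.49 at 1 week. It exceeded it by 1.58 and 1.98 at 4 weeks and by 1.25 and 1.68 at 8 weeks. Every card from 4 and 8 weeks thus had a wider gap between these neighbours of 1 cluster than every card from untreated liver or 1 week. Here too, the split of the cards is not among the 6 comparisons tested. Such a separation, in either direction, was seen for 17.6% of the 13695 pairs of tested assays and for 2 of the 6 pairs of tested members, the other being miR-429 and miR-200c, where the gaps nearest each other were 0.91 cycles at 8 weeks and 0.92 in untreated liver. The mean gap grew by 1.00 cycle from untreated liver to 4 weeks and by 0.685 to 8 weeks. For 2 cards against 2, the smallest p an exact two-sided permutation test can give is 0.333, so that test could not pass, and no other test of this difference was made.

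The gap of miR-429 to miR-200b was 1.46 and 0.21 cycles in untreated liver, -0.51 and -0.11 on the 1-week cards, 1.33 and 3.00 on the 4-week cards, and 1.35 and 1.70 on the 8-week cards. The 1-week cards were the only group in which miR-429 had an earlier Ct than miR-200b, and the 4-week and 8-week cards overlapped the untreated ones. miR-200c followed miR-200b by 3.36 and 1.13 cycles in untreated liver, 0.62 and 1.19 on the 1-week cards, 2.16 and 1.95 on the 4-week cards, and 1.93 and 2.61 on the 8-week cards, so that its treated cards lay within or below the untreated range. miR-200a and miR-429 were almost level at 8 weeks, 0.10 and 0.02 cycles apart.

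**Figure D3:**
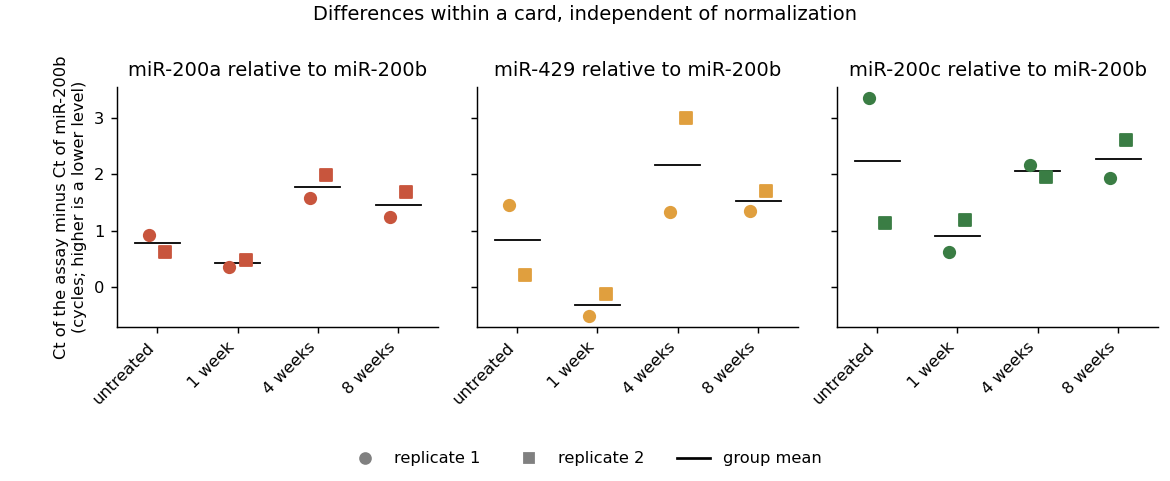
Ct of miR-200a, miR-429 and miR-200c minus the Ct of miR-200b on the same card (y axis, cycles; a higher value is a lower level relative to miR-200b) by group (x axis); points are cards and bars are means of 2. For miR-200a the 4-week and 8-week cards, from 1.25 to 1.98, lie above the untreated and 1-week cards, from 0.36 to 0.93, and 17.6% of all pairs of tested assays separate in either direction. This split of the cards is not among the 6 comparisons tested.

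Which members followed each other was described by the SD of their Ct difference over the cards, a measure that a shift of a whole card leaves as it is. It was 0.601 cycles for miR-200b and miR-200a and 0.616 for miR-200a and miR-429, against a median of 1.07 over the 13695 pairs of tested assays, of which 12.6% and 13.8% had a smaller SD. For miR-200b and miR-429, which share a cluster and a seed, it was 1.14, and 55.3% of pairs were closer. For miR-200b and miR-200c, the pair with the same seed and 2 differing bases, it was 0.881. miR-200c and miR-141, the chromosome 6 partners, had an SD of 0.583 over 7 cards.

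The correlation of centred levels over the 8 cards, which share 4 groups and 1 scaling, gave another order. Pearson's r was 0.88 for miR-200a and miR-429, which have different seeds, 0.62 for miR-429 and miR-200c, and 0.25 for miR-200b and miR-200a. It was -0.39 for miR-200b and miR-200c. With each card centred on all its determined assays the first was 0.90 and the last -0.022, while that of miR-200b and miR-200a was 0.58, so the place of miR-200b depends on the scaling. These are descriptions over 8 cards.

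Among the other tested assays, the 3 with the most similar pattern to miR-429 were miR-218, miR-186 and miR-24, each with an r of 0.95 over the 8 cards. For miR-200a they were miR-101a (r = 0.90), miR-24 (r = 0.89) and miR-126-5p (r = 0.88), and for miR-200c they were miR-339-3p (r = 0.90), miR-17 (r = 0.85) and miR-222 (r = 0.84). With the other centring, on all determined assays of each card, all 3 neighbours of miR-429 and of miR-200a remained among the nearest 3, and 2 of 3 for miR-200c. For miR-200b the nearest were miR-350 (r = 0.72), miR-7a (r = 0.67) and miR-467a (r = 0.52), and none of these remained. miR-24 was thus near both miR-200a and miR-429.

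**Figure D4:**
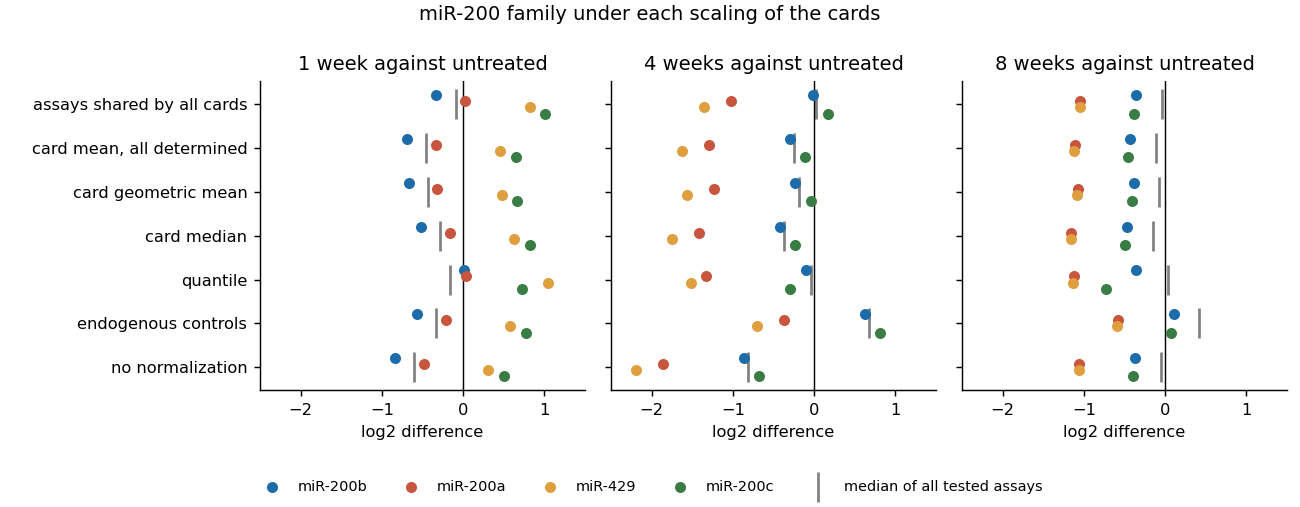
Log2 difference from untreated liver (x axis) of each tested member at 1, 4 and 8 weeks under each way of scaling the cards (y axis). miR-200a and miR-429 stay below 0 at 4 and 8 weeks under all of them, while miR-200b and miR-200c lie on both sides of 0 at 4 weeks.

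Other miRNAs linked to the epithelial state were set beside the family. Over the whole card, the 1-week comparison called 30 assays higher and 24 lower, the 4-week comparison 22 and 28, and the 8-week comparison 4 and 1. Of 7 on the card that are enriched in epithelia, 4 were tested, miR-203, miR-31, miR-182 and miR-183; miR-205, miR-375 and miR-96 were determined on 2, 6 and 3 cards. At 4 weeks 2 of the 4 were lower and none was higher, with a list median of -0.91 against 0.03 over all tested assays. miR-203, which holds back stem-like growth in skin epithelium, fell by 2.49 (adjusted p = 0.00168), and miR-31 fell by 1.24 (adjusted p = 0.0142). miR-183, named after its values were seen, had a difference of the other sign that did not pass, 1.57 (95% interval 0.033 to 3.10, adjusted p = 0.107). At 1 week miR-31 was higher by 0.90 (adjusted p = 0.0465, lost when any 1 of the cards was left out), and the list median was 0.49 against -0.09. At 8 weeks none of the 4 passed limma's test, and the median was -0.44 against -0.04. Compared with 1 week instead, miR-183 was called higher at 4 weeks, by 2.42 (limma adjusted p = 0.0218), and at 8 weeks, by 2.29 (limma adjusted p = 0.0414). These calls rest on late 1-week Ct values of 35 and 35.98, which are not under the limit of Ct 35. Against 1 week, the list had 1 higher and 3 lower calls at 4 weeks, and 1 higher and 2 lower at 8 weeks. Of all tested assays, 47.0% and 24.1% were called in these comparisons.

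The miR-30 family and miR-34a are reported to target Snai1, which encodes another repressor of E-cadherin. Of 6 tested assays of this kind, 1 was higher and 2 were lower at 1 week, 1 was higher and 3 were lower at 4 weeks, and 1 was higher at 8 weeks. The higher one was miR-34a, a p53 target, with 1.56 at 1 week (adjusted p = 0.00804) and 1.66 at 8 weeks (adjusted p = 0.0231). miR-30a fell by 1.23 at 1 week (adjusted p = 0.0190), and at 4 weeks miR-30e fell by 1.79 (adjusted p = 0.00988) and miR-30c by 1.69 (adjusted p = 0.00529). The list medians were -0.35, -0.99 and -0.67 at 1, 4 and 8 weeks, against -0.09, 0.03 and -0.04 over all tested assays. Of miRNAs reported to promote the transition, miR-21 and miR-10b were tested, and miR-10b fell by 1.33 at 1 week (adjusted p = 0.0483), while neither passed at 4 or 8 weeks. miR-9 was determined on 3 cards. With 1 card left out, the call of miR-10b was lost for 6 of 8 cards (adjusted p up to 0.243), that of miR-34a for 6 at 8 weeks (up to 0.154) and 2 at 1 week, that of miR-30a for 4 (up to 0.102), that of miR-31 at 4 weeks for 2 and that of miR-30e for 1, while miR-203 and miR-30c kept theirs for all 8.

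Markers of other liver cell types differed from untreated liver mainly at 1 and 4 weeks. So did all tested assays, of which 32.5%, 30.1% and 3.01% were called at 1, 4 and 8 weeks. At 8 weeks 1 of the 15 tested markers, miR-802, passed, a call that was lost for 5 of the 8 cards when 1 was left out. Of 5 hepatocyte markers, 1 was lower at 1 week, 4 at 4 weeks and 1 at 8 weeks, and their mean level was 3.84 to 3.86 on the untreated cards, 2.81 to 2.86 on the 1-week cards, 1.69 to 1.90 on the 4-week cards and 2.79 to 2.90 on the 8-week cards. The marker that did not pass at 4 weeks was miR-122, the most abundant miRNA of hepatocytes, with a difference of -0.23 (adjusted p = 0.740). Its mean level was lowest at 1 week, where the difference was -1.20 (adjusted p = 0.0949). Of 4 tested mesenchymal markers, 2 were higher at 4 weeks, miR-214 by 1.69 and miR-199a-3p by 1.10, calls that were lost for 2 and 7 of the 8 cards when 1 was left out, and their mean level was 0.89 to 1.11 on the untreated cards, 1.12 to 1.19 on the 1-week cards, 1.60 to 1.78 on the 4-week cards and 1.20 to 1.39 on the 8-week cards. Of 6 leukocyte markers, 5 were higher at 1 week and 4 at 4 weeks, led by miR-223 with 2.06 and 2.77, and their mean level was 0.10 to 0.42 on the untreated cards, 1.65 to 1.76 on the 1-week cards, 1.55 to 1.81 on the 4-week cards and 0.78 to 1.13 on the 8-week cards. The mean of the hepatocyte markers, though not miR-122, was thus lowest at 4 weeks, when the levels of miR-200a and miR-429 were also below those at 1 week. At 8 weeks that mean, 2.79 to 2.90, overlapped its 1-week range, while miR-200a and miR-429 differed from 1 week by -1.07 and -1.86, and the part of these cell types in the members' differences was not tested.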

How the data were processed

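The authors deposited raw Ct values, a log2 scale with the sign turned, without normalization and by card; cells without a Ct are empty. Per the labels and methods, RNA was isolated with the mirVana kit and, with no pre-amplification step, run on rodent A cards (TaqMan arrays, version 2.0). A deposited table of the authors' own fold changes (DataAssist v0.50, geometric mean normalization) was not used. Groups came from the labels.

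Each Ct was subtracted from the card's mean over the 149 assays whose Ct was under 35 on all cards. Tested were the 166 assays with a Ct on all cards and a mean Ct under 35, with limma 3.58.1 (R 4.3.3; lmFit, eBayes, 8 cards in 1 model, prior degrees of freedom 3.47), with Benjamini-Hochberg adjustment over all 166 within each of 6 comparisons at 0.05. The methods name REST, whose randomisation over 2 against 2 cards cannot reach this threshold. On 20 simulated sets of the comparison of 4 weeks with untreated liver, 40 of the 166 assays were changed by 2 on the log2 scale. Of the changed assays 80.8% were called, and of the unchanged assays 0.833%. The noise was drawn for each assay on its own, without deviations of a whole card. Smaller changes, such as the differences of the members at 4 weeks, were not simulated, so these shares do not apply to them.

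Named were the 5 members, the 3 assays most like each tested member by Pearson's r, and at most 2 called assays with the largest change per list and time; beside these, counts, medians and mean levels of lists are given, and miR-122 and miR-183 were added after their values were seen. Members and lists were chosen with earlier results of these data known. Alternatives were other scalings (card mean, geometric mean, median, quantile normalization, endogenous control RNAs, none), a limit of Ct 32 or no limit on the mean Ct, Ct 40 in place of undetermined values, assays determined on at least 6 cards, a replicate block, eBayes with a trend, only the groups compared, and each card left out. Plots used matplotlib 3.10.9.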

Additional observations from a re-analysis of the deposited data

Results flagged for a closer look

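The difference between 2 times on CCl4 was tested directly for each member, and 2 such differences passed limma's test. miR-429 was lower at 4 weeks than at 1 week by 2.17 on the log2 scale (-2.17, adjusted p = 0.0242), and its differences from untreated liver at these times were -1.35 and 0.82. miR-200a was lower at 4 weeks than at 1 week by 1.05 (-1.05, adjusted p = 0.0417), with differences from untreated liver of -1.02 and 0.027. In both, as in miR-200c, the 2 cards from 4 weeks lay below the 2 cards from 1 week, as they did for 38.0% of all tested assays, and 47.0% of all tested assays were called in this comparison. Without the 4-week replicate 2 the differences were -1.13 and -0.64 and neither passed. The call of miR-429 was lost for 3 of the 8 left-out cards and in 2 of 13 other ways of processing, and that of miR-200a for 6 and in 9. Groups of 2 cards are too small for a search for single outlying cards.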

How the results depend on the processing

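The sign of miR-200a and miR-429 against untreated liver at 4 and 8 weeks held under every scaling and every left-out card. Except for quantile normalization, scaling moved all assays of a card together. The median difference of all tested assays at 1, 4 and 8 weeks was -0.33, 0.67 and 0.42 with endogenous control RNAs. It was -0.45, -0.25 and -0.11 with the card mean and -0.60, -0.82 and -0.05 with no normalization, against -0.09, 0.03 and -0.04. The causes of the changes below were not tested. The endogenous control RNAs themselves differed on the main scale, U6 by 2.38 at 1 week (adjusted p = 0.00800) and by -1.5 at 4 weeks (adjusted p = 0.0417), and snoRNA202 by -1.39 at 1 week (adjusted p = 0.0139). miR-141, untested for its missing value, had no adjusted p under 0.05 under alternatives that admitted it.

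Calls over all assays, in the order of 1, 4 and 8 weeks against untreated, 4 and 8 weeks against 1 week, and 8 against 4 weeks, were 54, 50, 5, 78, 40 and 2. They became 18, 19, 1, 44, 17 and 1 with the card median, 5, 10, 1, 29, 8 and 0 without normalization, and 24, 3, 0, 32, 8 and 0 with undetermined values at Ct 40. The fifth gave 20 and the sixth 9 with quantile normalization. The third and sixth gave 1 and 1 with the card mean or geometric mean, 12 and 1 with endogenous controls, and 0 and 0 with only the groups compared; the third gave 3 with a mean Ct below 32 and 11 with a trend, and the sixth 0 with at least 6 cards. Higher and lower calls, 30 and 24 at 1 week and 22 and 28 at 4 weeks, were 18 and 33, then 12 and 27, with the card mean, and 45 and 11 at 4 weeks with endogenous controls. With 1 card left out the ranges were 17 to 59, 22 to 51, 0 to 6, 27 to 74, 3 to 49 and 0 to 1.

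Same-numbered cards deviated together in no constant direction (r from -0.50 to 0.43), so the numbers are not taken to pair the cards. With the replicate block the counts were 50, 49, 4, 75, 38 and 0, and no call of a member changed (miR-429 and miR-200a at 4 weeks against 1 week, adjusted p = 0.0302 and 0.0480). With the untreated numbers crossed, an alternative chosen after seeing the data, the block gave 17, 64 and 11 calls at 8 weeks against untreated, 1 week and 4 weeks.

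miR-200a at 4 weeks against 1 week lost its call with the card mean (-0.96), geometric mean (-0.91), median (-1.26), quantile (-1.36), endogenous controls (-0.17), no normalization (-1.38), and, at -1.05, with Ct 40, at least 6 cards or only the groups compared. miR-429 lost it with endogenous controls (-1.29) and Ct 40 (-2.17). Calls were gained with a mean Ct below 32 by miR-200a at 4 weeks (-1.02), and at 8 weeks against 1 week by miR-200a (-1.07) and miR-429 (-1.86), both also with a trend; with only the groups compared by miR-429 (-1.86) and miR-200c (-1.39) at 8 weeks against 1 week; and with endogenous controls by miR-200b at 4 weeks against 1 week (1.19). The sign turned for miR-200b at 1 week with quantile (0.013), at 4 and 8 weeks with endogenous controls (0.62 and 0.10), at 4 weeks against 1 week with quantile (-0.12) and no normalization (-0.025), at 8 weeks against 1 week with the card mean (0.26), geometric mean (0.28), median (0.045), endogenous controls (0.67) and no normalization (0.47), and at 8 against 4 weeks with no normalization (0.50). It turned for miR-200a at 1 week with the card mean (-0.33), geometric mean (-0.32), median (-0.16), endogenous controls (-0.21) and no normalization (-0.49), and at 8 against 4 weeks with the card mean (0.18), geometric mean (0.16), median (0.27), quantile (0.21) and no normalization (0.81). It turned for miR-200c at 4 weeks with the card mean (-0.11), geometric mean (-0.039), median (-0.23), quantile (-0.30) and no normalization (-0.68), with endogenous controls at 8 weeks (0.078) and at 4 weeks against 1 week (0.040), and at 8 against 4 weeks with no normalization (0.28). miR-141 with its missing value at Ct 40 was at -3.39, -3.42 and -3.09 at 8 weeks against untreated, 1 week and 4 weeks.

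With 1 card left out, the values of miR-200b ran from -0.60 to -0.077 (1 week), -0.29 to 0.21 (4 weeks), -0.63 to -0.13 (8 weeks), 0.037 to 0.51 (4 weeks against 1 week), -0.29 to 0.18 (8 weeks against 1 week) and -0.48 to -0.20 (8 against 4 weeks). Those of miR-200a ran from -0.13 to 0.21 (1 week), -1.35 to -0.69 (4 weeks), -1.30 to -0.78 (8 weeks), -1.38 to -0.64 at 4 weeks against 1 week, -1.33 to -0.81 at 8 weeks against 1 week, and -0.36 to 0.31 at 8 against 4 weeks. Those of miR-429 ran from 0.38 to 1.17 (1 week), -2.32 to -0.38 (4 weeks), -1.44 to -0.69 (8 weeks), -3.14 to -1.13 at 4 weeks against 1 week, -2.08 to -1.64 at 8 weeks against 1 week, and -0.67 to 1.27 at 8 against 4 weeks. Those of miR-200c ran from 0.090 to 1.85 (1 week), -0.72 to 1.02 (4 weeks), -1.27 to 0.46 (8 weeks), -0.93 to -0.74 (4 weeks against 1 week), -1.78 to -1.01 (8 weeks against 1 week) and -0.94 to -0.17 (8 against 4 weeks).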

Other observations

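The hundredths of the deposited Ct values were not spread alike on all cards. On replicate 2 at 4 weeks, 92 of 193 determined Ct values (47.7%) had hundredths from 90 to 99. The share was 12.3% on replicate 1 at 4 weeks, 17.4% and 15.6% in untreated liver, 26.3% and 32.4% for the 1-week cards, and 15.0% and 20.1% for the 8-week cards. Of the 39 determined Ct values of the miR-200 family, 6 had such hundredths. The same card held the latest Ct values of the family for miR-200b, miR-200a, miR-429 and miR-141, those of miR-200b and miR-429 being 29.00 and 32 to the hundredth. Whether this pattern bears on the levels was not tested.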
